A study of Mus musculus with 15 samples.

Results

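The cells and tumours compared here were examined for 29 genes of cholesterol and fatty acid synthesis, chosen by name. A gene counted as measured when the platform annotation assigned at least 1 probe set to it alone. By that rule 25 of the 29 genes were measured, by 43 probe sets out of 45141 on the array, and 13 of them had more than 1 probe set. Pmvk, Srebf1, Acat2 and Scd2 had no probe set of their own and were not analysed here. The 25 genes fall into 4 roles: 5 genes of the mevalonate steps, 11 of the squalene and sterol steps, 4 of sterol sensing and transport, and 5 of the fatty acid steps.

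Cholesterol is made from acetyl-CoA. The mevalonate steps turn it into isoprenoid units, which are joined to squalene, closed to lanosterol and trimmed to cholesterol by a chain of demethylases, reductases and isomerases in the endoplasmic reticulum. SREBP2, the product of Srebf2, is a transcription factor held in that membrane by INSIG proteins and its escort SCAP while sterols are plentiful, and it moves to the nucleus and raises the transcription of most of these genes when sterols run low. SREBP1, from Srebf1, does the same mainly for fatty acid synthesis. The brain makes its own cholesterol, since lipoproteins of the blood do not cross into it, and myelinating oligodendrocytes and astrocytes are heavy producers. In granule neuron progenitors, the dividing cells of the young cerebellum, cholesterol is also needed for the Hedgehog signal receiver Smoothened to work.

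SREBP factors bind sterol regulatory elements in promoters, often beside CCAAT boxes bound by NF-Y. RefSeq promoter entries (build GRCm38.p6) existed for 20 of the 25 measured genes, in 22 windows of 250 bases upstream of a start site. The sequences of 4 of them, 5′ to 3′ on the strand of the gene, show the neighbourhood of 3 mevalonate genes that were lower in Shh tumours than in GFP-positive cells, and of Tmem97, which went the other way. Capitals mark matches on either strand to CCAAT and to TCACNCCAC, a sterol regulatory element form. The Hmgcs1 window is chr13:119690101-119690350 (+), the Mvk window chr5:114444019-114444268 (+), the Mvd window chr8:122443423-122443672 (-) and the Tmem97 window chr11:78550736-78550985 (-).
Hmgcs1: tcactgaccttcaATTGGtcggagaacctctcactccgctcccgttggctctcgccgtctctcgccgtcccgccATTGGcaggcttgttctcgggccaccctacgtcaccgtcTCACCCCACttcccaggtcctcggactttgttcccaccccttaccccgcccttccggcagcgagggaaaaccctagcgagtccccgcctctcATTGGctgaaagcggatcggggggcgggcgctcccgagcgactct
Mvk: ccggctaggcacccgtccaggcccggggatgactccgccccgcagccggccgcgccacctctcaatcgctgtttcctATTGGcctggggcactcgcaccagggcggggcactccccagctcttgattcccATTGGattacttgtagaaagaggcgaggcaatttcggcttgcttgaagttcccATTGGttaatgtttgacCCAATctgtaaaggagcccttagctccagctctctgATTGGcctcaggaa
Mvd: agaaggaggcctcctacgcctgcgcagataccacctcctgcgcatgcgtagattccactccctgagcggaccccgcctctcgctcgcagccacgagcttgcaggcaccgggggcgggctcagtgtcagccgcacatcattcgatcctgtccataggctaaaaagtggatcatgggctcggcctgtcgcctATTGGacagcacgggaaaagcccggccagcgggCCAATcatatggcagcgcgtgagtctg
Tmem97: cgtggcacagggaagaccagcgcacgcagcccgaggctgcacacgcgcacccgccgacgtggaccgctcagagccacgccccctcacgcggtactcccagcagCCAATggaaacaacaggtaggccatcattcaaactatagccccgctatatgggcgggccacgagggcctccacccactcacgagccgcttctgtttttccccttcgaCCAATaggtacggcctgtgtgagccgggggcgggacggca

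The Hmgcs1 window held 3 CCAAT matches, the Mvk window 5, and the Mvd and Tmem97 windows 2 each. A CCAAT match was found in 17 of the 22 windows of the measured genes, or 77.3%, and in 33.8% of all 32851 promoter windows of the same length. The 5 windows without one were those of Elovl6, Acaca and Acly and 2 of the Dhcr7 windows. A further Dhcr7 window held 2 CCAAT matches. TCACNCCAC was found in 1 window, that of Hmgcs1, and in 1.05% of all windows. CACGTG, the E-box that Myc with Max and also SREBP1 can bind, was found in 4 of the 22 windows, or 18.2%, against 6.02% of all. They were those of Hsd17b7, Insig1 and Sc5d and 1 of the Dhcr7 windows. Such matches describe letters in these windows and show no binding.

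The data were log2 signals from 15 one-colour Affymetrix HT_MG-430_PM arrays, in 5 groups of 3 mouse samples. For Myc primary tumours, cerebellar cells (Cdkn2c-/-, Trp53-/-, with the Atoh1-GFP reporter) were infected with Myc and implanted in the cortex of nude mice, which lack T cells. Myc secondary tumours grew from sphere cultures of such primary tumours that were transplanted orthotopically. Shh tumours were medulloblastomas that arose by themselves in Cdkn2c-/-; Trp53Fl/Fl; Nestin-Cre mice, in which Trp53 is lost only in cells that expressed Nestin-Cre and their offspring. GFP-positive and GFP-negative cells were separated by flow sorting from Atoh1-GFP cerebella at postnatal day 6, again Cdkn2c-/- and Trp53-/-, so the cells of origin in all 5 groups lacked Cdkn2c and Trp53. Cells spared by Cre in the Shh mice, and cells of the nude host in Myc tumours, whose genotype at these genes is not in the labels, are exceptions that an array may hold. The labels of the 6 sorted samples call them spontaneous tumours, against the study's design text, which was followed. Ages of the tumour-bearing mice are not in the labels, and neither is the number of animals behind each group. The p-values therefore rest on a spread among samples that may be technical.

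Tumour cells had been dissociated and purified on a Percoll gradient. The GFP-positive arrays carried all 6 measured granule neuron progenitor markers above background, while Atoh1 and Barhl1 were under it in GFP-negative cells and Barhl1 and Gli1 were under it in both Myc groups. The summed signal of 10 oligodendrocyte markers, as the log2 of their sum, was 13.3 to 14.3 in GFP-negative cells and 8.12 to 8.31 in GFP-positive cells. It was 8.58 to 13.1 in Myc primary tumours, where replicate 3 held the high value, 9.09 to 9.38 in Shh tumours and 8.32 to 8.72 in Myc secondary tumours. In samples of mixed cells, fewer cells of a type and less RNA per cell cannot be told apart. Array medians lay between 4.64 and 4.89, and the background level was 4.77, below which 95% of the signals of 23 nonspecific control probe sets lay. All 25 genes were above it in every group mean. The interquartile range of the signals was 3.73 on GFP-negative replicate 3 and 4.20 to 4.57 on the other arrays. That replicate was the lowest of its group for 49.58% of all genes and for 16 of the 25 genes.

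**Figure D1:**
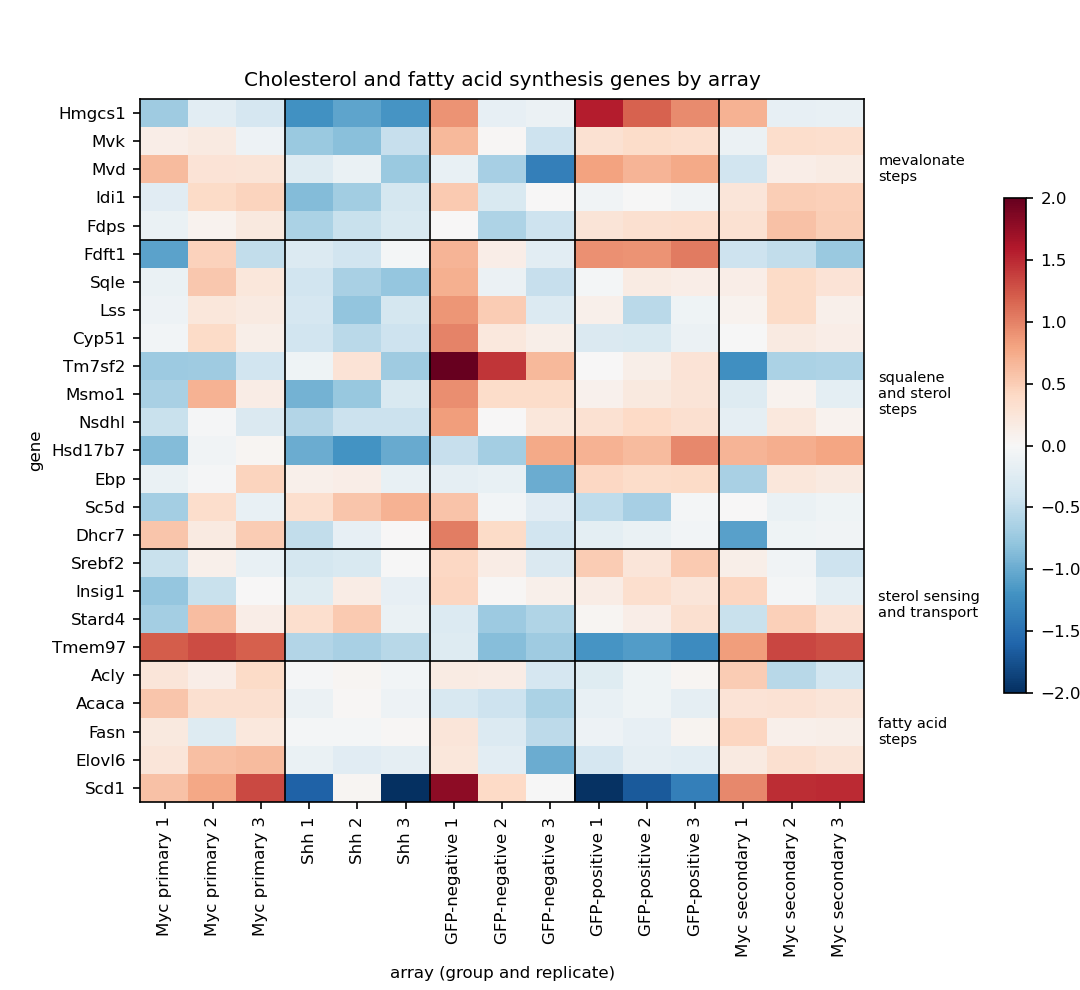
Log2 signal of the 25 measured genes (rows, grouped by role) on the 15 arrays (columns), as the difference from each gene's own mean over the arrays, with colour from 2 below to 2 above that mean. The 3 Shh arrays are below the mean for every mevalonate gene, and Tmem97 is high in both Myc tumour groups.

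Each gene was represented by its probe set with the highest mean signal, and 8 comparisons were made in 1 limma fit over the 5 groups and 17097 genes. A gene is said to rise or fall where its Benjamini-Hochberg adjusted p was below 0.05. Differences are on the log2 scale, given with the standard error of the fit. Comparisons that share a group share its 3 arrays and are not independent of each other.

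Several sterol synthesis genes were lower in Shh tumours than in sorted progenitors. Against GFP-positive cells, 7 of the 25 genes fell in Shh tumours and 1 rose, where 2.92% of all genes fell and 4.63% rose. The 7 were Hmgcs1, Mvk, Mvd, Fdps, Fdft1, Nsdhl and Hsd17b7, all of sterol synthesis, and the gene that rose was Tmem97. The median difference of the 25 genes was -0.33, against -0.01 for all genes. In the same comparison 5 of 8 microglia and macrophage markers and 1 of 6 granule neuron progenitor markers rose. Of 5 markers of GABAergic and Purkinje neurons 3 fell, with a median difference of -0.89. In that list Gad2, Calb1 and Pcp2 were under the background level in every group. The part of these cells in the result was not tested. The number of calls was sensitive to single arrays: it was 2, 4 or 5 without Shh replicate 1, 2 or 3 and 3, 3 or 4 without GFP-positive replicate 1, 2 or 3. Hmgcs1 and Hsd17b7 fell in each of these 6 fits. When each array was centred on its median gene, which moves this comparison by -0.29, 11 of the 25 genes fell and 0 rose, and the share of higher genes among all called went from 61.3% to 32.3%. Of all 17097 genes 1010 fell and 481 rose in that fit.

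Both Myc tumour groups were above Shh tumours for some of the 25 genes. Of the 6 granule neuron progenitor markers 5 fell in each Myc group against Shh tumours and none of 8 microglia markers was called. In Myc primary tumours 1 of 10 oligodendrocyte, 2 of 7 endothelial and 1 of 6 fibroblast markers rose against Shh tumours. The median differences of these lists were 1.53, 0.57 and 1.60. Of 8 astroglia markers 1 rose and 2 fell there, with a median of 1.08. The part of such cells in the results was not tested. In Myc primary tumours 6 genes rose against Shh tumours and none fell, where 8.46% of all genes rose and 7.33% fell, and the median difference was 0.59 against 0.08 for all genes. The 6 were Mvk, Idi1, Sqle, Tmem97, Acaca and Scd1. The count was 2 without Myc primary replicate 3 or without Shh replicate 1, 3 without Shh replicate 2, and Tmem97 rose in each. Without Myc primary replicate 2, 3 rose and 1 fell, where 1188 of all genes rose and 1145 fell. In Myc secondary tumours 9 genes rose against Shh tumours, namely Hmgcs1, Mvk, Idi1, Fdps, Sqle, Hsd17b7, Tmem97, Acaca and Scd1, and none fell, where 10.5% of all genes rose and 12.3% fell. Their median difference was 0.44, against 0.07 for all genes. With only the 6 arrays of this comparison 12 rose and 1 fell, where 1625 of all genes rose and 1828 fell. In the fit without Myc primary 3, GFP-negative 3 and Myc secondary 1, 11 rose and 1 fell, where 2624 of all genes rose and 2432 fell. With median centring, which moves this comparison by 0.33, 15 rose and 0 fell, and higher genes made up 72.9% of all called genes in place of 46.1%. Of all 17097 genes 3611 rose and 1342 fell in that fit.

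Against GFP-positive cells the Myc tumours differed in both directions. In Myc primary tumours 4 genes rose (Tmem97, Acaca, Elovl6 and Scd1) and 5 fell (Hmgcs1, Fdft1, Nsdhl, Hsd17b7 and Insig1), where 14.5% of all genes rose and 10.3% fell. Without any 1 of the GFP-positive replicates, 1, 2 or 3, there were 5 calls. With median centring (a shift of -0.29) 2 rose and 9 fell, and higher genes made up 36.4% of all called genes in place of 58.5%. Of all 17097 genes 1574 rose and 2745 fell in that fit. In Myc secondary tumours Tmem97, Acaca and Scd1 rose and Hmgcs1 and Fdft1 fell, 3 and 2 of 25, where 13.5% of all genes rose and 11.8% fell. There were 3 calls without GFP-positive replicate 1 or without Myc secondary replicate 2. In Myc primary tumours against GFP-positive cells all 6 granule neuron progenitor markers and 3 of 5 GABAergic and Purkinje markers fell, and 5 of 8 microglia, 4 of 6 fibroblast and 3 of 10 oligodendrocyte markers rose. In Myc secondary tumours all 6 and 3 of 5 fell, and 7 of 8 microglia and 2 of 6 fibroblast markers rose. Of the GABAergic and Purkinje markers, Gad2, Calb1 and Pcp2 were under the background level in every group. The part of these cells in the results was not tested. The counts that rose in either Myc group, and those that fell in Myc secondary tumours, are near the shares of all genes and are no result about these 25 genes as a set.

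Counts against the GFP-negative cells were also near the shares of all genes. In GFP-positive cells 4 genes rose against GFP-negative cells (Hmgcs1, Mvd, Fdps and Ebp) and 4 fell (Cyp51, Tm7sf2, Tmem97 and Scd1), where 12.6% of all genes rose and 13.8% fell. There were 3 calls without GFP-positive replicate 1 and 5 without replicate 2. With median centring (a shift of 0.50) 13 rose and 2 fell, and higher genes made up 82.3% of all called genes in place of 47.7%. Of all 17097 genes 7516 rose and 1612 fell in that fit, so these counts too are near the shares of all genes. In Myc primary tumours 4 genes rose against GFP-negative cells (Mvd, Tmem97, Acaca and Elovl6) and 3 fell (Tm7sf2, Nsdhl and Insig1), where 19.1% of all genes rose and 14.7% fell. Higher genes made up 56.5% of all called genes, 67.8% with median centring (a shift of 0.21) and 43.5% with cyclic loess, and the counts of the 25 genes became 7 and 1, and 4 and 9. Of all 17097 genes 4084 rose and 1940 fell with median centring, and 2604 rose and 3378 fell with cyclic loess.

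Between Myc secondary and Myc primary tumours none of the 25 genes changed by limma's adjusted p, where 0.257% of all genes rose and 0.462% fell. Higher genes made up 35.8% of all called genes and 77.7% with median centring (a shift of 0.33). At an unadjusted p below 0.05 there were 4 genes, and their log2 differences were 0.42 for Fdps, 1.03 for Hsd17b7, -0.83 for Dhcr7 and 0.46 for Insig1. The share of all genes at that threshold is not given here, so this count is no result about the 25 genes. In the fit without 3 arrays that an earlier analysis had set apart (Myc primary 3, GFP-negative 3 and Myc secondary 1) Hsd17b7 rose by 1.23 (adjusted p = 0.035) and Acly fell by 0.65 (adjusted p = 0.036). Of all 17097 genes 127 rose and 157 fell in that fit.

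**Figure D2:**
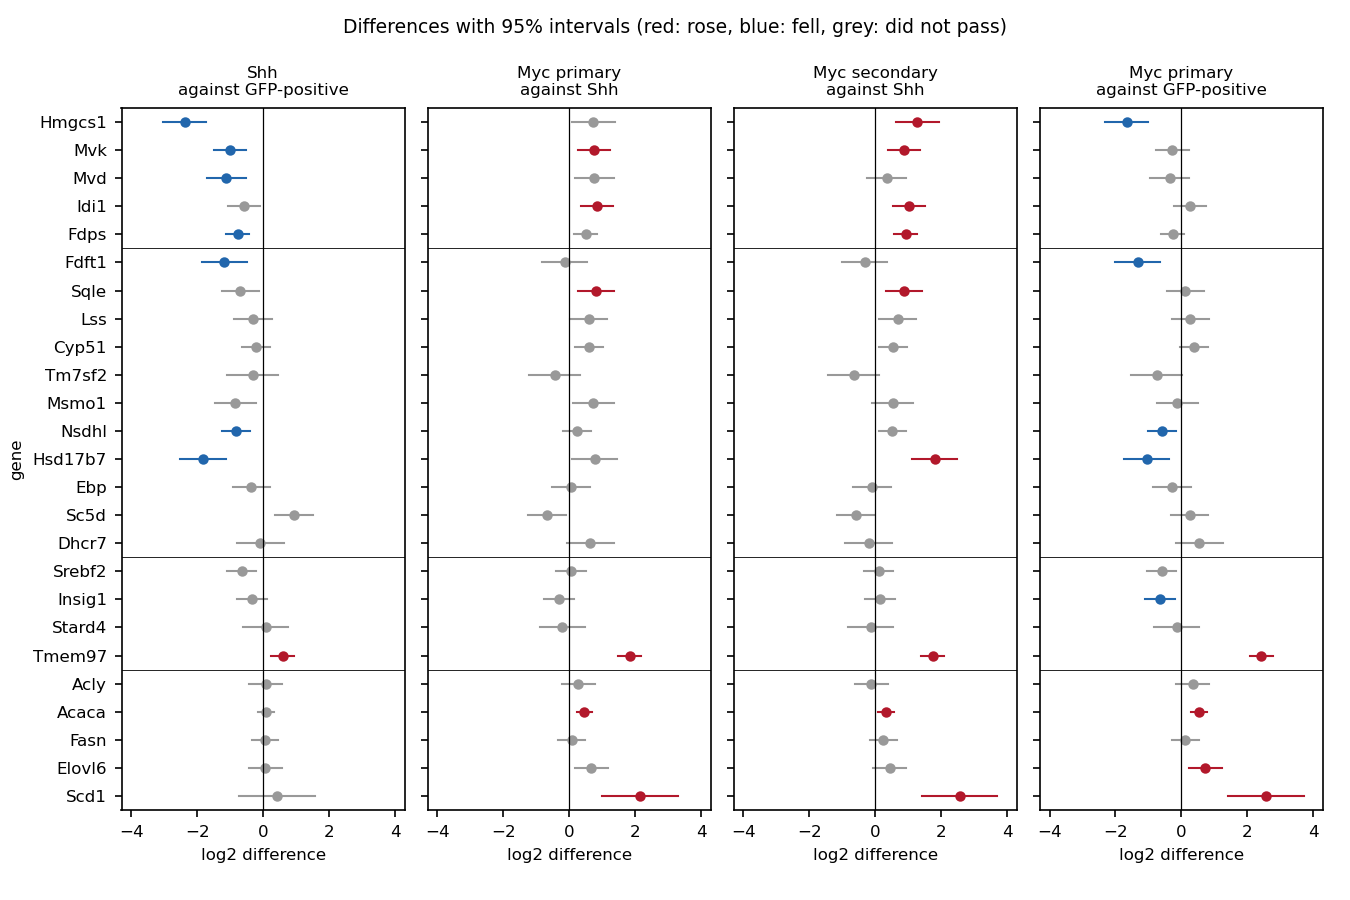
Log2 differences of the 25 genes (rows) in 4 comparisons (panels), with 95% intervals from the limma fit; red genes rose, blue genes fell and grey genes did not pass an adjusted p of 0.05. Blue points are at the top of the panel for Shh tumours against GFP-positive cells, among the mevalonate genes, and Tmem97 is red in all 4 panels, although its call in that first panel is lost with median centring.

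Among the mevalonate steps, Hmgcs1, the HMG-CoA synthase that makes the substrate of the pathway's rate-limiting reductase, showed the widest span. Its log2 signal was 6.19, 6.34 and 6.22 in Shh tumours, 6.68, 7.18 and 7.07 in Myc primary tumours, 8.10, 7.24 and 7.25 in Myc secondary tumours, 8.30, 7.24 and 7.29 in GFP-negative cells, and 8.97, 8.58 and 8.34 in GFP-positive cells. The 3 Shh arrays were below all 12 others and the 3 GFP-positive arrays above all 12 others. Hmgcs1 had 1 probe set, so these values rest on it alone. Hmgcs1 fell by 2.38 ± 0.30 in Shh tumours against GFP-positive cells, a 5.22-fold difference (adjusted p = 0.00047), and by 1.65 ± 0.30 in Myc primary tumours against the same cells (adjusted p = 0.0014). It rose by 1.28 ± 0.30 in Myc secondary against Shh tumours (adjusted p = 0.0082). These 3 calls held in every alternative tried, while the rise of 1.02 ± 0.30 in GFP-positive against GFP-negative cells (adjusted p = 0.023) and the fall of 1.10 ± 0.30 in Myc secondary tumours against GFP-positive cells (adjusted p = 0.016) did not. The first of these lost its call without GFP-negative replicate 2 or 3 or GFP-positive replicate 1 or 2, and the other without GFP-positive replicate 1 or Myc secondary replicate 2 or 3.

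Hmgcs1 and Idi1 lie on chromosome 13, where many genes were lower in Shh tumours. Of the 659 measured genes of that chromosome, 13.8% fell and 2.73% rose in Shh tumours against GFP-positive cells, with a median difference of -0.13. In Myc primary tumours 19.7% of them rose against Shh tumours, with a median difference of 0.19. The part of the chromosome in the values of these 2 genes was not tested. Mvk, Mvd and Fdps lie on chromosomes 5, 8 and 3, where 3.02%, 1.92% and 1.5% of genes fell in Shh tumours against GFP-positive cells.

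Mvk, mevalonate kinase, read 6.41, 6.33 and 6.70 in Shh tumours, 7.29, 7.33 and 7.07 in Myc primary tumours, 7.04, 7.52 and 7.50 in Myc secondary tumours, 7.81, 7.19 and 6.75 in GFP-negative cells and 7.46, 7.53 and 7.50 in GFP-positive cells. On this probe set Shh arrays were again below all 12 others, the nearest being GFP-negative replicate 3. On its other probe set they overlapped with other groups. Mvk fell by 1.02 ± 0.23 in Shh tumours against GFP-positive cells (adjusted p = 0.0155), and it rose by 0.75 ± 0.23 in Myc primary (adjusted p = 0.041) and 0.87 ± 0.23 in Myc secondary tumours (adjusted p = 0.014) against Shh tumours. Its other probe set also fell in the first of these and rose in the last, but did not pass in Myc primary against Shh tumours, where its log2 difference was 0.35. Without Shh replicate 1 or 2, or without any GFP-positive replicate, the fall against GFP-positive cells lost its call. The rise in Myc primary tumours lost it without any 1 of the Myc primary replicates or without Shh replicate 1 or 2, and that in Myc secondary tumours without Shh replicate 2 or Myc secondary replicate 2 or 3.

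Mvd, the decarboxylase that makes isopentenyl diphosphate, separated the 2 sorted populations. It read 8.79, 8.67 and 8.75 in GFP-positive cells, 7.84, 7.33 and 6.62 in GFP-negative cells, 8.62, 8.27 and 8.26 in Myc primary tumours, 7.61, 8.13 and 8.16 in Myc secondary tumours and 7.74, 7.87 and 7.25 in Shh tumours. GFP-positive arrays were above all 12 others on this probe set. On the other probe set of Mvd, GFP-positive replicate 2 read 7.96 and Myc primary replicate 1 read 8.30. Mvd rose by 1.48 ± 0.27 in GFP-positive against GFP-negative cells (adjusted p = 0.0013) and by 1.12 ± 0.27 in Myc primary tumours against GFP-negative cells (adjusted p = 0.006), with both of its probe sets and in every alternative. In Shh tumours it fell by 1.12 ± 0.27 against GFP-positive cells (adjusted p = 0.024). That call was lost without Shh replicate 1 or 3 or without any GFP-positive replicate.

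Idi1 and Fdps act next, as the isopentenyl diphosphate isomerase and the synthase that joins the units to farnesyl diphosphate. Idi1 read 9.12, 9.30 and 9.64 in Shh tumours, 9.76, 10.38 and 10.44 in Myc primary tumours, 10.22, 10.49 and 10.46 in Myc secondary tumours, 10.52, 9.68 and 9.999 in GFP-negative cells, and 9.92, 9.98 and 9.92 in GFP-positive cells. The Shh arrays were below all 12 others on this probe set, by a narrow margin to GFP-negative replicate 2, but not on the other probe set of Idi1. It rose by 0.84 ± 0.22 in Myc primary (adjusted p = 0.023) and by 1.04 ± 0.22 in Myc secondary tumours (adjusted p = 0.0051) against Shh tumours. The second call held in every alternative, and the first was lost without Myc primary replicate 2 or 3 or Shh replicate 1 or 2. Against GFP-positive cells its difference in Shh tumours was -0.59 ± 0.22, which did not pass (adjusted p = 0.15).

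Fdps read 9.20, 9.38 and 9.53 in Shh tumours, 9.69, 9.90 and 10.02 in Myc primary tumours, 10.14, 10.41 and 10.33 in Myc secondary tumours, 9.84, 9.21 and 9.41 in GFP-negative cells and 10.09, 10.15 and 10.16 in GFP-positive cells. Shh tumours and GFP-negative cells overlapped at the low end, and Myc secondary tumours and GFP-positive cells at the high end. Fdps rose by 0.92 ± 0.16 in Myc secondary against Shh tumours (adjusted p = 0.0013), in every alternative. It fell by 0.77 ± 0.16 in Shh tumours against GFP-positive cells (adjusted p = 0.012), a call lost without Shh replicate 1, and rose by 0.65 ± 0.16 in GFP-positive against GFP-negative cells (adjusted p = 0.0091), a call lost with cyclic loess scaling. As a group the 5 mevalonate genes had a median difference of -1.02 in Shh tumours against GFP-positive cells and 0.75 and 0.92 in Myc primary and Myc secondary tumours against Shh tumours. These directions were the same under cyclic loess and median centring.

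**Figure D3:**
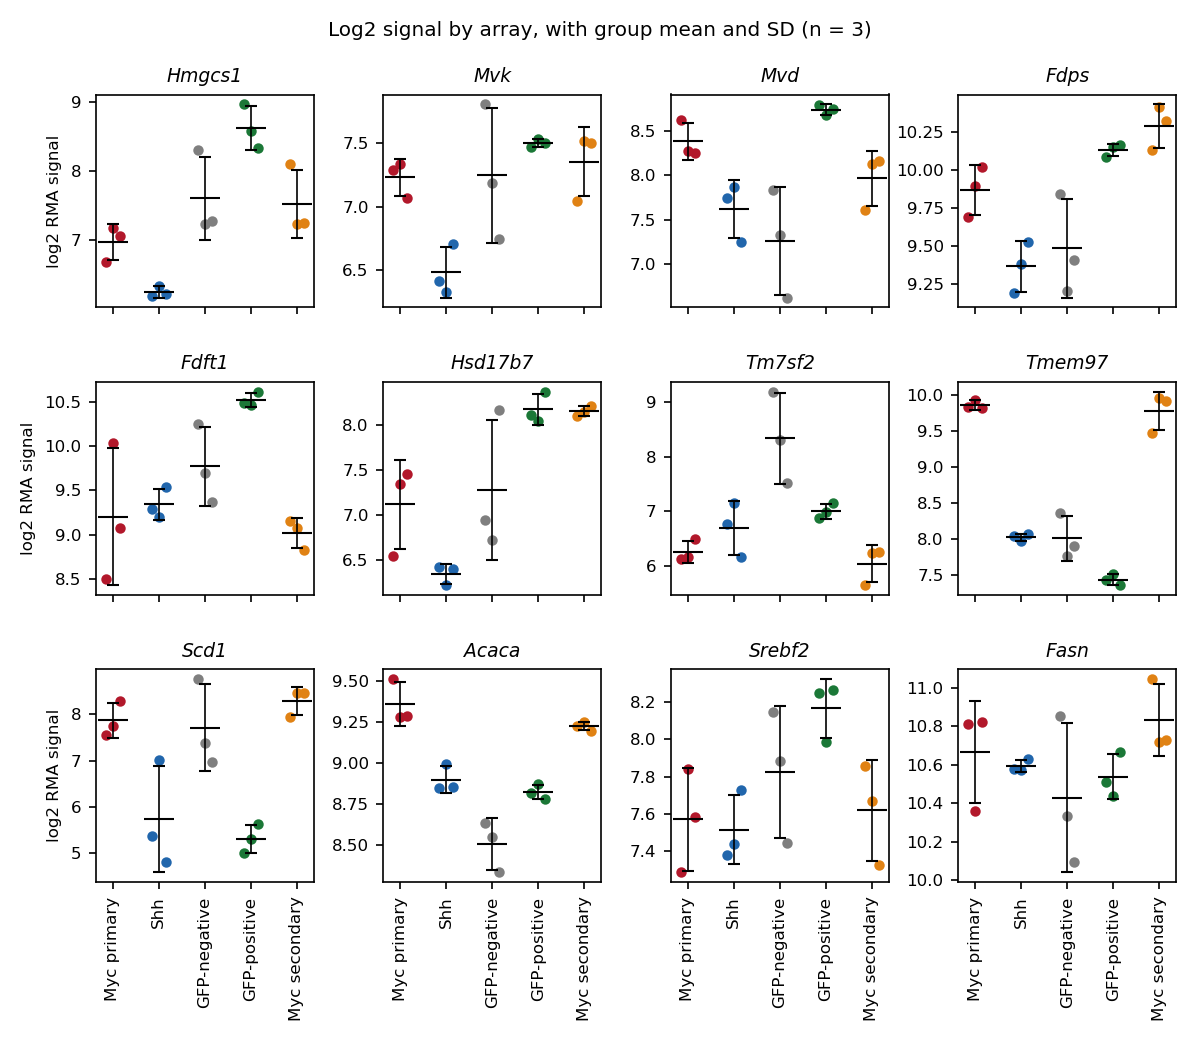
Log2 signal of 12 of the genes (panels) on every array, by group, with the group mean and SD of 3 arrays in black; each vertical axis has its own range and does not start at 0. Shh arrays are the lowest for Hmgcs1, Mvk and Hsd17b7, while Tmem97 is between 9.47 and 9.96 in both Myc groups and between 7.37 and 8.36 in the other groups.

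In the squalene and sterol steps the groups did not move as one. Fdft1, squalene synthase, was highest in GFP-positive cells at 10.49, 10.46 and 10.62, above all 12 other arrays. It read 10.25, 9.70 and 9.37 in GFP-negative cells, 9.29, 9.20 and 9.54 in Shh tumours, 8.51, 10.03 and 9.08 in Myc primary tumours and 9.15, 9.08 and 8.83 in Myc secondary tumours. The Myc primary arrays were widely spread, with replicate 2 near the GFP-negative cells and replicate 1 the lowest of all. Fdft1 fell by 1.32 ± 0.31 in Myc primary (adjusted p = 0.0078) and by 1.503 ± 0.31 in Myc secondary tumours (adjusted p = 0.0032) against GFP-positive cells, in every alternative, and by 1.18 ± 0.31 in Shh tumours (adjusted p = 0.038). The last call was lost without any 1 of the 6 arrays of that comparison. Fdft1 lies on chromosome 14, where 24.7% of 604 genes fell and 3.31% rose in Myc secondary tumours against GFP-positive cells, and 18.2% fell in Myc primary tumours, while 2.15% fell in Shh tumours. The part of the chromosome in its values was not tested.

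Sqle, the squalene epoxidase that commits squalene to sterols, read 9.31, 9.05 and 8.93 in Shh tumours, 9.56, 10.23 and 9.92 in Myc primary tumours, 9.83, 10.08 and 9.97 in Myc secondary tumours, 10.41, 9.59 and 9.24 in GFP-negative cells, and 9.65, 9.87 and 9.83 in GFP-positive cells. Only GFP-negative replicate 3 reached into the range of the Shh tumours. Sqle rose by 0.81 ± 0.25 in Myc primary (adjusted p = 0.048) and by 0.87 ± 0.25 in Myc secondary tumours (adjusted p = 0.027) against Shh tumours. The first call was lost without Myc primary replicate 2 or 3 or any Shh replicate, the second without Shh replicate 2 or 3 or Myc secondary replicate 2 or 3. Against GFP-positive cells the difference in Shh tumours was -0.69 ± 0.25 and did not pass (adjusted p = 0.13).

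Hsd17b7, the 3-ketosteroid reductase of the pathway, read 6.42, 6.22 and 6.40 in Shh tumours, 6.55, 7.34 and 7.46 in Myc primary tumours, 8.09, 8.15 and 8.20 in Myc secondary tumours, 6.95, 6.73 and 8.16 in GFP-negative cells and 8.10, 8.04 and 8.37 in GFP-positive cells. On this probe set Shh arrays were below all 12 others, and Myc secondary tumours and GFP-positive cells shared 1 narrow high range. It fell by 1.82 ± 0.32 in Shh tumours against GFP-positive cells (adjusted p = 0.0038), a 3.53-fold difference, and rose by 1.80 ± 0.32 in Myc secondary against Shh tumours (adjusted p = 0.0014). Both calls held in every alternative for this probe set. Of its 3 probe sets all rose in the second comparison, with differences of 0.49 to 1.80, but 1 fell in the first, where they spanned -1.82 to -0.02. In Myc primary tumours it fell by 1.05 ± 0.32 against GFP-positive cells (adjusted p = 0.028), where another of its probe sets differed by 0.50. That call was lost without Myc primary replicate 1 or any GFP-positive replicate, and when the probe sets were averaged (-0.067, adjusted p = 0.83). One of the 3 probe sets was under the background level in Shh tumours and both sorted populations.

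Tm7sf2, a sterol C14 reductase, was highest in the GFP-negative cells. It read 9.20, 8.30 and 7.52 there, above all 12 other arrays, against 6.87, 6.99 and 7.14 in GFP-positive cells, 6.77, 7.15 and 6.15 in Shh tumours, 6.13, 6.15 and 6.48 in Myc primary tumours and 5.64, 6.23 and 6.25 in Myc secondary tumours. The GFP-negative arrays were spread over more than a log2 unit. Tm7sf2 fell by 2.09 ± 0.36 in Myc primary tumours against GFP-negative cells (adjusted p = 0.00059), in every alternative. It fell by 1.34 ± 0.36 in GFP-positive against GFP-negative cells (adjusted p = 0.014), a call lost without GFP-positive replicate 1. Markers of several cell types moved with it. In GFP-positive against GFP-negative cells 10 of 10 oligodendrocyte, 8 of 8 microglia, 7 of 8 astroglia, 6 of 7 endothelial and 5 of 6 fibroblast markers fell, and in Myc primary against GFP-negative cells 8 of 10, 8 of 8, 7 of 8, 3 of 7 and 2 of 6. Their part in the result was not tested.

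Cyp51, the lanosterol demethylase, read 10.03, 9.25 and 9.16 in GFP-negative cells, 8.75, 8.74 and 8.92 in GFP-positive cells, 8.66, 8.50 and 8.62 in Shh tumours, 8.99, 9.43 and 9.16 in Myc primary tumours and 9.03, 9.22 and 9.17 in Myc secondary tumours. The Shh arrays were below all 12 others on this probe set, but not on another probe set of Cyp51 that was above background. Its fall of 0.68 ± 0.20 in GFP-positive against GFP-negative cells (adjusted p = 0.022) was not shared by all of its 3 probe sets, which spanned -0.68 to 0.52. The call was also lost without GFP-negative replicate 1 or GFP-positive replicate 1 or 2, and with median centring (-0.18, adjusted p = 0.41).

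Nsdhl, a dehydrogenase of the C4 demethylation step, read 9.27, 9.37 and 9.29 in GFP-positive cells, 9.80, 8.97 and 9.19 in GFP-negative cells, 8.38, 8.54 and 8.54 in Shh tumours, 8.53, 8.95 and 8.68 in Myc primary tumours and 8.79, 9.18 and 9.04 in Myc secondary tumours. It was lower in the tumour arrays than in every GFP-positive array. It fell by 0.82 ± 0.19 in Shh tumours (adjusted p = 0.02) and 0.59 ± 0.19 in Myc primary tumours (adjusted p = 0.04) against GFP-positive cells, and by 0.60 ± 0.19 in Myc primary tumours against GFP-negative cells (adjusted p = 0.027). Each of these calls was lost in the absence of single arrays, the first without Shh replicate 1 or 2 or any GFP-positive replicate, the second without Myc primary replicate 1 or 3 or any GFP-positive replicate, and the third without Myc primary replicate 1 or 3 or GFP-negative replicate 1, or with median centring (-0.396, adjusted p = 0.16).

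Ebp, the sterol isomerase, read 9.43, 9.39 and 9.41 in GFP-positive cells, 8.85, 8.88 and 8.04 in GFP-negative cells, 9.13, 9.16 and 8.87 in Shh tumours, 8.89, 9.01 and 9.47 in Myc primary tumours and 8.38, 9.25 and 9.21 in Myc secondary tumours. GFP-positive and GFP-negative arrays did not overlap, and the tumours lay between or across them. It rose by 0.82 ± 0.26 in GFP-positive against GFP-negative cells (adjusted p = 0.036), a call lost without GFP-negative replicate 3 or any GFP-positive replicate, and with cyclic loess (0.575, adjusted p = 0.068).

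The other 4 genes of these steps were called in none of the 8 comparisons: Lss, the lanosterol synthase, Msmo1, a C4 methylsterol oxidase, Sc5d, a desaturase, and Dhcr7, the last reductase of the pathway. One probe set of Sc5d went against the rest, at 8.14, 8.35 and 8.49 in Shh tumours and 7.28, 7.13 and 7.77 in GFP-positive cells. These arrays did not overlap, and the difference of 0.93 ± 0.26 missed the threshold (adjusted p = 0.051). Another probe set of Sc5d, also above background, differed by -0.28, so the gene has no settled direction. The second probe set of Msmo1 fell by 1.72 in Shh tumours against GFP-positive cells, where the probe set used differed by -0.85 ± 0.29 (adjusted p = 0.099). Over all 43 probe sets tested singly, 11 fell and 2 rose in Shh tumours against GFP-positive cells, where 4.28% of all 28898 probe sets with 1 gene fell and 4.26% rose. In Myc secondary against Shh tumours 14 rose and 0 fell, where 10.9% of all rose and 11% fell. The median difference of the 11 genes was -0.36 in Shh tumours against GFP-positive cells, and 0.59 and 0.52 in Myc primary and Myc secondary tumours against Shh tumours. In GFP-positive against GFP-negative cells it was -0.37, but 0.13 after median centring, and has no settled direction.

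Among the genes of sterol sensing and transport, Tmem97 had the clearest pattern of all 25. Tmem97 encodes the sigma-2 receptor, a membrane protein of the endoplasmic reticulum that binds the cholesterol transporter NPC1. It read 9.83, 9.93 and 9.81 in Myc primary tumours and 9.47, 9.96 and 9.91 in Myc secondary tumours, but 8.04, 7.98 and 8.07 in Shh tumours, 8.36, 7.77 and 7.91 in GFP-negative cells, and 7.44, 7.51 and 7.37 in GFP-positive cells. The 6 Myc tumour arrays lay more than a log2 unit above the 9 others, and the GFP-positive arrays were below all 12 others. Tmem97 had 1 probe set, so these values rest on it alone. Tmem97 rose by 2.42 ± 0.16 in Myc primary (adjusted p = 9.1e-07) and 2.34 ± 0.16 in Myc secondary tumours (adjusted p = 8.1e-07) against GFP-positive cells, or 5.36-fold and 5.06-fold. Against Shh tumours it rose by 1.83 ± 0.16 in Myc primary (adjusted p = 1.4e-05) and 1.75 ± 0.16 in Myc secondary tumours (adjusted p = 1.3e-05), and against GFP-negative cells by 1.85 ± 0.16 in Myc primary tumours (adjusted p = 3.7e-06). All 5 of these calls held in every alternative. The smaller differences did not: the rise of 0.59 ± 0.16 in Shh tumours against GFP-positive cells (adjusted p = 0.043) was lost without any 1 of the 6 arrays, and the fall of 0.57 ± 0.16 in GFP-positive against GFP-negative cells (adjusted p = 0.018) without GFP-negative replicate 1 or GFP-positive replicate 1 or 3. With median centring these were 0.298 (adjusted p = 0.32) and -0.075 (adjusted p = 0.74), so neither was called.

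Srebf2, which encodes the factor that drives the sterol genes, was called in no comparison. It read 7.38, 7.44 and 7.73 in Shh tumours, 7.29, 7.84 and 7.59 in Myc primary tumours, 7.86, 7.67 and 7.33 in Myc secondary tumours, 8.15, 7.88 and 7.45 in GFP-negative cells and 8.25, 7.98 and 8.27 in GFP-positive cells. GFP-positive arrays were above every tumour array, and the tumour groups overlapped. Its difference from GFP-positive cells was -0.65 ± 0.21 in Shh tumours (adjusted p = 0.077), -0.60 ± 0.21 in Myc primary tumours (adjusted p = 0.052) and -0.55 ± 0.21 in Myc secondary tumours (adjusted p = 0.073). Between Myc primary and Shh tumours the difference was 0.06, with a 95% interval of -0.39 to 0.50. The array measures the transcript and not the processed factor.

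Insig1, a sterol sensor that retains SREBP and is itself an SREBP target, read 8.98, 9.31 and 9.76 in Myc primary tumours, 9.50, 9.90 and 9.58 in Shh tumours, 10.17, 9.72 and 9.55 in Myc secondary tumours, 10.18, 9.77 and 9.85 in GFP-negative cells and 9.90, 10.08 and 9.99 in GFP-positive cells. The Myc primary arrays were the lowest on average and were below both sorted populations. Insig1 fell by 0.64 ± 0.21 in Myc primary tumours against GFP-positive cells (adjusted p = 0.042) and by 0.58 ± 0.21 against GFP-negative cells (adjusted p = 0.049). Both calls were near the threshold and were lost without Myc primary replicate 1 or 2, and also without any 1 of the 3 arrays of the sorted population compared. The one against GFP-negative cells was lost with median centring too (-0.378, adjusted p = 0.25). Against Shh tumours its difference in Myc primary tumours was -0.31 ± 0.21 (adjusted p = 0.37). Stard4, a carrier of cholesterol between membranes, was called in no comparison, with differences from -0.22 to 0.70.

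Of the 5 fatty acid genes, Scd1, Acaca and Elovl6 rose in Myc primary tumours against GFP-positive cells, and Fasn and Acly were called in no comparison. Scd1, the stearoyl-CoA desaturase that makes oleate, read 7.56, 7.75 and 8.30 in Myc primary tumours, 7.93, 8.46 and 8.47 in Myc secondary tumours, 8.77, 7.37 and 6.98 in GFP-negative cells, 5.36, 7.01 and 4.80 in Shh tumours and 4.998, 5.30 and 5.62 in GFP-positive cells. The GFP-positive arrays overlapped only with those of the Shh tumours, and Shh replicate 2 stood well above the other Shh arrays. Scd1 rose by 2.57 ± 0.53 in Myc primary (adjusted p = 0.0031) and 2.99 ± 0.53 in Myc secondary tumours (adjusted p = 0.001) against GFP-positive cells, and fell by 2.40 ± 0.53 in GFP-positive against GFP-negative cells (adjusted p = 0.0043). It also rose by 2.56 ± 0.53 in Myc secondary against Shh tumours (adjusted p = 0.0037), and these 4 calls held in every alternative. The rise of 2.15 ± 0.53 in Myc primary against Shh tumours (adjusted p = 0.015) was lost without Myc primary replicate 3 or Shh replicate 1 or 3. The other probe set of Scd1, under the background level in Shh tumours and GFP-positive cells, also rose in both comparisons of Myc secondary tumours. It was not called in Myc primary tumours against Shh tumours (0.83) or GFP-positive cells (0.75), nor in GFP-positive against GFP-negative cells (-0.46).

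Acaca, the acetyl-CoA carboxylase of the cytosol and the committed step of fatty acid synthesis, read 9.52, 9.28 and 9.29 in Myc primary tumours, 9.23, 9.25 and 9.20 in Myc secondary tumours, 8.84, 8.99 and 8.86 in Shh tumours, 8.82, 8.87 and 8.78 in GFP-positive cells and 8.64, 8.55 and 8.33 in GFP-negative cells. Myc primary arrays were above all 12 others and GFP-negative arrays below all 12 others. Acaca rose in Myc primary tumours by 0.46 ± 0.11 against Shh tumours (adjusted p = 0.013), 0.54 ± 0.11 against GFP-positive cells (adjusted p = 0.0032) and 0.85 ± 0.11 against GFP-negative cells (adjusted p = 7.0e-05). In Myc secondary tumours it rose by 0.33 ± 0.11 against Shh tumours (adjusted p = 0.0496) and by 0.40 ± 0.11 against GFP-positive cells (adjusted p = 0.016). The call against GFP-negative cells held in every alternative. The second probe set of Acaca was under the background level in all 5 groups, so these values rest on 1 probe set. With median centring the calls in Myc primary against Shh tumours (0.461, adjusted p = 0.12), Myc primary tumours against GFP-positive cells (0.245, adjusted p = 0.37) and Myc secondary tumours against GFP-positive cells (0.44, adjusted p = 0.11) were lost. The call in Myc primary against Shh tumours was also lost without Myc primary replicate 1, that in Myc secondary against Shh tumours without any 1 of the 6 arrays, and that in Myc secondary tumours against GFP-positive cells without GFP-positive replicate 1 or 3 or Myc secondary replicate 2.

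Elovl6, which elongates palmitate to stearate, read 9.58, 9.93 and 9.96 in Myc primary tumours, 9.52, 9.65 and 9.59 in Myc secondary tumours, 9.19, 9.10 and 9.15 in Shh tumours, 8.996, 9.15 and 9.11 in GFP-positive cells, and 9.55, 9.11 and 8.33 in GFP-negative cells. Apart from GFP-negative replicate 1, every array of the other groups was below every Myc tumour array. It rose in Myc primary tumours by 0.82 ± 0.23 against GFP-negative cells (adjusted p = 0.015) and by 0.73 ± 0.23 against GFP-positive cells (adjusted p = 0.034), and its difference from Shh tumours was 0.67 ± 0.23 (adjusted p = 0.068). Averaged over its 3 probe sets, neither call passed, and the second was also lost with median centring (0.441, adjusted p = 0.086) and without Myc primary replicate 2 or 3 or any GFP-positive replicate.

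Fasn, the fatty acid synthase itself, differed little between groups. It read 10.81, 10.36 and 10.82 in Myc primary tumours, 11.05, 10.72 and 10.73 in Myc secondary tumours, 10.58, 10.57 and 10.63 in Shh tumours, 10.85, 10.34 and 10.10 in GFP-negative cells and 10.51, 10.44 and 10.66 in GFP-positive cells. Its differences were between 0.05 and 0.29 in the 8 comparisons and passed in none. For Myc primary against Shh tumours the 95% interval was -0.33 to 0.48. Acly, which makes cytosolic acetyl-CoA from citrate for both pathways, also passed in none, and its 95% interval in the same comparison was -0.23 to 0.77. The median difference of the 5 fatty acid genes was 0.54 and 0.40 in Myc primary and Myc secondary tumours against GFP-positive cells, 0.46 and 0.33 against Shh tumours, and positive under both other scalings.

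Samples of 1 group differed together in these genes. GFP-negative replicate 1 was the highest of its group for 23 of the 25 genes, or 92.0%, where it was highest for 41.79% of all genes. Myc primary replicate 1 was the lowest of its group for 18 genes, or 72.0%, against 36.05% of all genes, and for 10 of the 11 squalene and sterol genes. In the latter role the median deviation from the mean over all arrays was -0.44 in Myc primary replicate 1, and 0.23 and 0.115 in replicates 2 and 3. Myc secondary replicate 1 was the lowest of its group for 17 genes, or 68.0%, against 42.07% of all genes. It was the lowest for 9 of the 11 squalene and sterol genes. Markers of some cell types also differed between replicates, but not in 1 common direction. In GFP-negative replicate 1, 8 of 10 oligodendrocyte and 7 of 8 astroglia markers were also the highest of the group, while 6 of 8 microglia markers were the lowest. In Myc primary replicate 1, 5 of 6 fibroblast and meninges markers were the lowest of the group and 7 of 8 microglia markers the highest. In Myc secondary replicate 1, 4 of 6 fibroblast and meninges markers and 8 of 8 microglia markers were the lowest of the group. Oligodendrocyte markers were highest in Myc primary replicate 3, with a median deviation of 3.09, against -0.38 in replicate 1 and -1.34 in replicate 2. Replicate 2 was the lowest of the group for all 10 of these markers and the highest for 7 of the 11 squalene and sterol genes. The part of these cells in the spread was not tested.

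**Figure D4:**
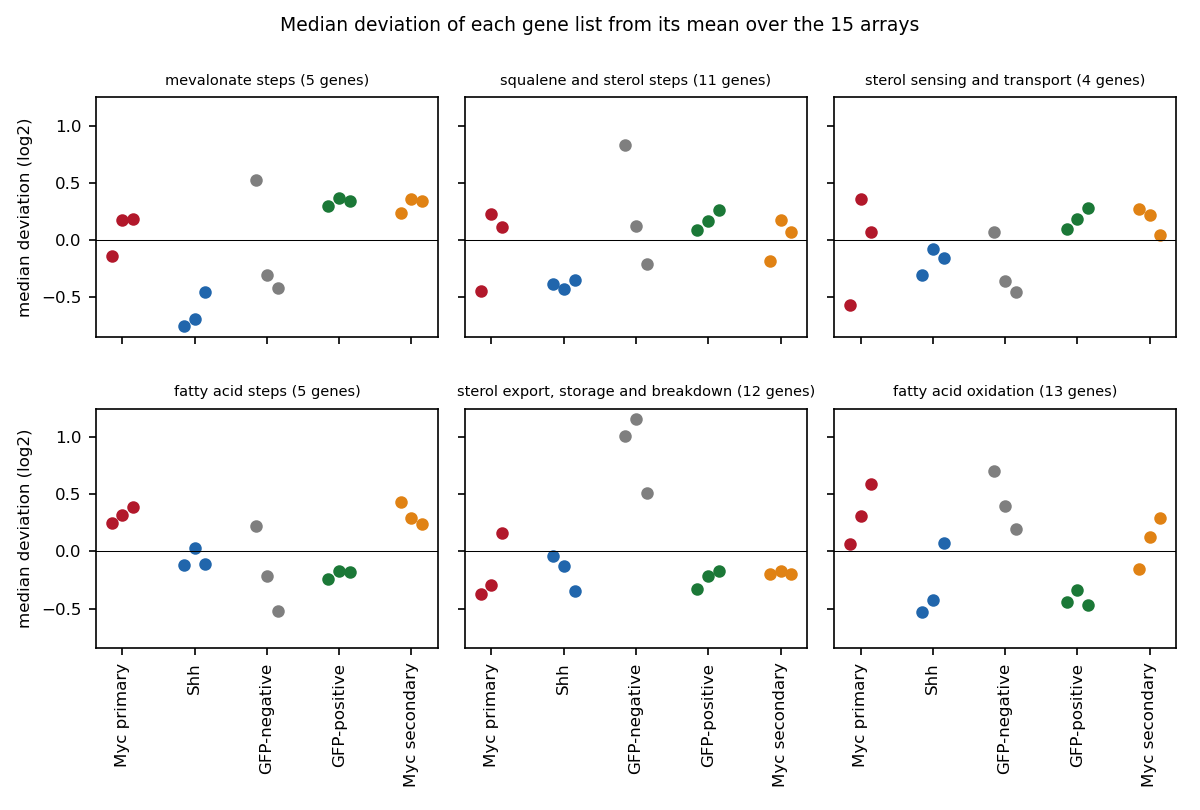
Median over the genes of a list of each gene's deviation from its own mean over the 15 arrays (log2), for each array by group, for the 4 roles and 2 neighbouring pathways. Shh arrays are the lowest for the mevalonate steps, from -0.75 to -0.46, and GFP-negative arrays are the highest for sterol export, storage and breakdown, from 0.51 to 1.15.

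By the order of group means, Shh tumours were the lowest group for 11 of the 25 genes, or 44.0%, where they were lowest for 22.1% of all genes. All 11 belong to sterol synthesis or its control: Hmgcs1, Mvk, Idi1, Fdps, Sqle, Lss, Cyp51, Msmo1, Nsdhl, Hsd17b7 and Srebf2. For 5 of them (20.0%, against 1.47% of all genes) the 3 Shh arrays were below all 12 others. GFP-positive cells were highest for 8 genes, or 32%, against 17.5% of all genes, and for Hmgcs1, Mvd and Fdft1 their 3 arrays were above all 12 others (12.0%, against 3.87% of all genes). These counts describe the group order only, on the probe set used for each gene. On another probe set of Mvk, Shh replicate 3 read 6.37 and Myc primary replicate 3 read 6.18. On others of Idi1 and Cyp51, Shh replicate 3 read 8.54 and 7.85, above Myc primary replicate 1 at 8.36 and 7.80. The other probe set of Mvd did not set the GFP-positive arrays apart either. Neighbours in it often did not differ beyond their spread, as for Fdps in Shh tumours and GFP-negative cells, where the difference between group means was smaller than the SD of the GFP-negative arrays.

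Genes around the pathway moved differently. Of 7 measured further genes of sterol synthesis and SREBP processing, Scap, the escort of SREBP, rose by 1.004 ± 0.25 (adjusted p = 0.015) in Myc primary and by 0.94 ± 0.25 (adjusted p = 0.015) in Myc secondary tumours against Shh tumours. It was the only one called in either comparison, where 8.46% and 10.5% of all genes rose, and is no result about the list. In Myc primary against Shh tumours 5 of the 7 differences were negative and 2 positive, with a median of -0.30. Scap also rose in both Myc groups against GFP-positive cells, by 1.06 ± 0.25 and 0.997 ± 0.25. No gene of this list was called in Shh tumours against GFP-positive cells (0 at an unadjusted p below 0.05 as well). Mbtps2, a protease that cuts SREBP, rose by 1.11 ± 0.23 in GFP-positive (adjusted p = 0.0027) and 0.86 ± 0.23 in Myc primary (adjusted p = 0.01) against GFP-negative cells, the latter with Ggps1 and Scap. In these 2 comparisons 1 and 3 of the 7 genes rose, where 12.6% and 19.1% of all genes rose.

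Sterol export, storage and breakdown set the GFP-negative cells apart. Of 12 measured genes, 7 fell and none rose in GFP-positive against GFP-negative cells, and 8 fell and none rose in Myc primary tumours against GFP-negative cells, with median differences of -1.17 and -1.25, where 13.8% and 14.7% of all genes fell. Apoe, the lipoprotein of astrocytes and microglia, fell by 6.70 ± 0.40 and Mylip, which marks the LDL receptor for breakdown, by 3.60 ± 0.25 in the first comparison. Microglia and macrophage markers fell with them, 8 of 8 in both comparisons, and so did 7 of 8 astroglia markers. The summed signal of the 8 microglia markers was 13.2 to 14.4 in GFP-negative cells and 6.85 to 7.36 in GFP-positive cells, where all 8 were under the background level. Apoe rose by 3.54 ± 0.40 in Shh tumours, 4.21 ± 0.40 in Myc primary tumours and 3.76 ± 0.40 in Myc secondary tumours against GFP-positive cells, and 5 of 8, 5 of 8 and 7 of 8 microglia markers rose in the same comparisons. The part of these cell types in the results was not tested.

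Further genes of fatty acid synthesis, elongation and desaturation gave 4 rises and 1 fall among 18 in Myc primary against Shh tumours, where 8.46% of all genes rose and 7.33% fell. Elovl1, an elongase of saturated long chains, rose by 1.54 ± 0.23 (adjusted p = 0.00066), and Tecr, the last enzyme of each elongation round, fell by 0.63 ± 0.15 (adjusted p = 0.012). Acacb, the mitochondrial carboxylase, was also called higher, but its means were under the background level in both groups. In Myc secondary against Shh tumours Elovl1 and Acacb rose and Tecr fell, counts near or below the 10.5% and 12.3% of all genes that rose and fell and thus no result about the list. In GFP-positive against GFP-negative cells 5 of the 18 fell and none rose, among them Elovl1 with a difference of -2.61, Elovl5 with -0.93 and Elovl7, whose GFP-positive mean was under the background level. All genes gave 13.8% falls there, and the oligodendrocyte, astroglia and microglia markers fell in 10 of 10, 7 of 8 and 8 of 8 cases. Their part in these falls was not tested.

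Fatty acid oxidation is the opposing pathway. Of its 13 measured genes, 6 rose and 1 fell in Myc primary against Shh tumours, with a median difference of 0.62, where 8.46% of all genes rose and 7.33% fell. Against GFP-positive cells 6 rose and none fell, with a median of 0.90, where 14.5% of all genes rose and 10.3% fell. Those with the smallest adjusted p against Shh tumours were Slc25a20, the carnitine carrier of mitochondria, which rose by 1.38 ± 0.20 (adjusted p = 0.00054), Hadhb, a subunit of the trifunctional protein, by 0.93 ± 0.15 (adjusted p = 0.0013), and Cpt1b, whose Shh mean was under the background level. In Myc secondary tumours 3 rose and 1 fell against Shh tumours and 4 rose and none fell against GFP-positive cells, where 10.5% and 13.5% of all genes rose and 12.3% and 11.8% fell. Cpt1a, the gatekeeper of mitochondrial uptake in most tissues, fell by 3.86 ± 0.41 in GFP-positive against GFP-negative cells (adjusted p = 1.9e-05), where 7 of the 13 fell and none rose, with 13.8% of all genes falling. The microglia (8 of 8), astroglia (7 of 8) and oligodendrocyte (10 of 10) markers fell in the same comparison, and their part was not tested. In Shh tumours against GFP-positive cells only Cpt1b was called, with both means under the background level. None of these 4 further lists held a called gene in Myc secondary against Myc primary tumours by limma, where 3 genes of sterol export, storage and breakdown and 1 of fatty acid oxidation had an unadjusted p below 0.05. The share of all genes at that threshold is not given here, so these counts are no result about the lists.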

How the data were processed

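The authors deposited log2 expression values, made with RMA in Partek 6.5 per the submitters' processing notes; the RMA settings are not given in the sources used here. Arrays have no read depth, and 3 arrays a group limit the precision. Of 45141 probe sets, 104 controls, 551 with several genes and 15588 without a gene were left out of the tests, and 28898 had 1 gene (28689 with a current symbol). The probe set with the highest mean signal stood for each of 17097 genes. Differences were tested with limma 3.58.1 (R 4.3.3; lmFit and eBayes, 10 residual degrees of freedom) in 1 fit over the 5 groups, with Benjamini-Hochberg adjustment over all genes. Groups came from the labels, and replicates were numbered in accession order. The scripts were checked on simulated data.

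Per-array values are given for up to 6 genes that rose and 6 that fell per comparison, with the smallest adjusted p, and always for Srebf2, Insig1, Hmgcs1, Sqle, Fasn and Scd1. Of each further list up to 3 genes per comparison are named. Sc5d, outside this rule, was chosen after its values were seen. The genes and lists were chosen with earlier results of these data known. The alternatives were 2 other probe set rules, 2 scalings, a filter on dim genes, a variance trend, only the 6 arrays compared, and leaving out arrays. For a gene with 1 probe set, the 2 other probe set rules used the same signals. Promoter motifs were searched in Python 3.11.15.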

Additional observations from a re-analysis of the deposited data

How the results depend on the processing

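Of 52 called differences of single genes, 22 kept their call under every alternative run, and none reversed. The number of genes called moved by over 1.5 times under these settings. With cyclic loess it was 11 in Myc primary against Shh tumours, 13 in Myc primary tumours against GFP-negative cells and 8 in Myc secondary tumours against GFP-positive cells. With median centring it was 15 in GFP-positive against GFP-negative cells and 15 in Myc secondary against Shh tumours. With only the 6 arrays of the comparison it was 5 in GFP-positive against GFP-negative cells, 4 in Myc primary tumours against GFP-negative cells, 13 in Shh tumours and 9 in Myc secondary tumours against GFP-positive cells. Without the 3 arrays set apart it was 2 in Myc secondary against Myc primary tumours and 8 in Myc secondary tumours against GFP-positive cells. The number of all genes called moved as well, so these counts alone are no result about the 25 genes. With cyclic loess 1630 of all genes rose and 1571 fell in Myc primary against Shh tumours, in place of 1447 and 1254. With median centring 7516 rose and 1612 fell in GFP-positive against GFP-negative cells, in place of 2149 and 2356. The causes were not tested. Leaving out 1 array at a time gave 2 to 5 calls in Myc primary against Shh tumours, 0 to 0 in Myc secondary against Myc primary tumours, 3 to 8 in GFP-positive and 6 to 8 in Myc primary against GFP-negative cells, 5 to 8 in Myc primary, 2 to 5 in Shh and 3 to 6 in Myc secondary tumours against GFP-positive cells, and 6 to 8 in Myc secondary against Shh tumours. No paired analysis was possible because the labels give the groups no shared replicate numbers. All 25 genes stayed in when dim genes were left out.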
